A study of Saccharomyces cerevisiae with 4 samples.

Results

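The data described here were the 2 two-colour arrays that set an ERG12 mutant of Saccharomyces cerevisiae directly against its parental strain after growth on glycerol. They made up 1 of 4 sample records and 2 of the 8 arrays in the series, and were chosen by their label alone, mutant glycerol RNA over parental glycerol RNA. The parental strain was labelled BY4741, a haploid laboratory strain of mating type a. The mutant carried a DAmP allele of ERG12, a type of allele in which the end of the transcript is disrupted so that less of it accumulates. The labels put its mevalonate kinase activity at 10% of the parental level. Both strains were grown on glucose in synthetic YNB medium and then moved to the same medium with glycerol at 20 g/L, or with glucose at 20 g/L for the comparison used beside it. The labels disagree on what followed. One text gives 1 h in the new medium, another has the cultures start at an OD600 of 0.1 and stop at 0.5, the densest that mutant cultures became on glycerol, and the last gives 1 h in rich medium at pH 2.5. All groups share this uncertainty. The labels give no number of mutant clones.

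Mevalonate kinase phosphorylates mevalonate, an early step of the isoprenoid pathway. That pathway supplies ergosterol, the main sterol of yeast membranes, and also ubiquinone, haem A, dolichol and the prenyl groups of lipid-modified proteins. Yeast growing on glycerol depends on respiration, which needs ubiquinone and haem A, so the carbon source places a demand on some of the same products.

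On both arrays the mutant RNA carried Cy5 and the parental RNA Cy3, with no dye swap, so a dye effect of a gene remained in its ratio. An array held 12512 gene spots for 6256 genes. On array 1, 5489 genes were well above background in the mutant channel and 5199 in the parental channel, and on array 2 the numbers were 5413 and 5165. Median spot intensities before background correction were 372 (mutant) and 389.5 (parental) scanner units on array 1 and 296 and 264 on array 2, and 0 gene spots were saturated. The labels call the arrays a biological duplicate, and the number of arrays limits the precision. A single slide carried the 8 arrays with 1 column per comparison, so effects of the column and of the comparison cannot be told apart. The test covered 5343 genes, those for which all channels of 1 or more conditions were well above background. Ratios are log2 of mutant over parental, after loess, so that the average gene lies near 0. Errors are standard errors of the limma fit with n = 2 arrays, unless given otherwise. Their spread is estimated over all 8 arrays, so they do not measure how far apart the 2 glycerol arrays lay. Adjusted p-values are from limma with Benjamini-Hochberg adjustment over all tested genes. Signals given for a gene are Agilent's processed intensities, from which the scanner software had removed background and dye bias. The ratios come from the median intensities by another route, so the quotient of 2 signals differs from the ratio.

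The strain labels were checked first. ERG12, the mutated gene (YMR208W on chromosome XIII), gave little signal. It on array 1 was at 73.24 in the mutant and 107.2 in the parental channel, and on array 2 at 42.73 and 81.79. Each channel was well above background on 1 of the 2 arrays. In no condition of the series were all channels well above background, so ERG12 did not enter the test. Its log2 ratio was -0.19 on array 1 and -0.31 on array 2, and -0.25 ± 0.09 in a fit without the filter (adjusted p = 0.206). The mutant signal was the lower one on both arrays, but the difference did not pass the test. Of the channels of all 8 arrays, ERG12 was well above background in 1 of 8 with mutant RNA and in 5 of 8 with parental RNA.

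URA3, the orotidine phosphate decarboxylase gene of uracil synthesis, had the largest ratio of all. Its signals were 11810 (mutant) and 98.06 (parental) on array 1, and 8048 and 25.04 on array 2. The log2 ratios were 5.53 and 5.06, with a mean of 5.29 ± 0.13 (adjusted p = 5.11e-07). The parental channel was well above background on 1 of the 2 arrays, so the ratio on array 2 has a parental level at background. The 4 nearest tested genes around URA3 lay between -0.37 and 0.26 with adjusted p-values from 0.224 to 0.953. BY4741 is known to lack a working URA3, and parental RNA was well above background for it in 3 of 8 channels, mutant RNA in 8 of 8. Those 3 parental channels, at 64.35 to 98.06, were on arrays that also held mutant RNA. On the arrays with parental RNA alone, URA3 signals were 10.05 to 14.24 and not well above background. HIS3 and LEU2, which BY4741 also lacks, were well above background in 0 of 16 channels. MET17, the sulfide-fixing enzyme of homocysteine synthesis that BY4741 is also known to lack, was bright in 16 of 16 channels, from 5193 to 47660 in parental RNA. That goes against the label of the parental strain, and it stands beside the sulfur results below. LYS2, which BY4741 retains, was well above background in 16 of 16. The defining markers of mating type a were mixed. STE6 was well above background in 16 of 16 channels, MFA1 in 13 with signals of at most 134.5, AGA2 in 8, STE2 in 6, MFA2 in 2 and BAR1 in 0. Of the alpha-type genes, SAG1 was above background in 16 channels, STE3 in 4, MF(ALPHA)1 in 3 and MF(ALPHA)2 in 0. The transcripts of the mitochondrial genome were present, with COX1, COX3, COB, ATP6 and OLI1 in 16 of 16 channels and COX2 in 15.

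In glycerol, 220 genes differed between the strains, 173 higher and 47 lower in the mutant. These are 4.12% of the genes tested, 3.24% for the higher and 0.88% for the lower ones. At an unadjusted p under 0.05 there were 1081. Higher and lower here mean higher or lower than the average gene. Scaled on the spike-in probes instead, the median of all genes lay at -0.82 and 23 genes were called higher and 3928 lower. Small positive ratios of called genes then lay below 0, and 69 of the 220 genes kept both their call and its sign. The list medians given below are likewise relative to the average gene. A change of at least 2-fold was reached by 63 of the higher and 9 of the lower genes. All 220 had the same sign on both arrays, which the test favours by its construction. The arrays did not contribute equally. Ratios on array 1 had an SD across genes of 0.444 against 0.299 on array 2, the arrays correlated at r = 0.511 across genes, and 168 of the 220 called genes had the larger ratio on array 1. Without array 1 the fit called 18 genes and without array 2 it called 108, with the lone array assumed to vary like the other comparisons. Of the 220 genes, 15 were called in both of these fits. They were URA3, GRE1, GND2, CHS2, SUL2, YNL058C, MET5, MET3, RAD59, MET14, MNN4, CLB1, SEO1, MUP3 and GSH1, all higher in the mutant. The others lost their call in at least 1 of these fits.

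**Figure D1:**
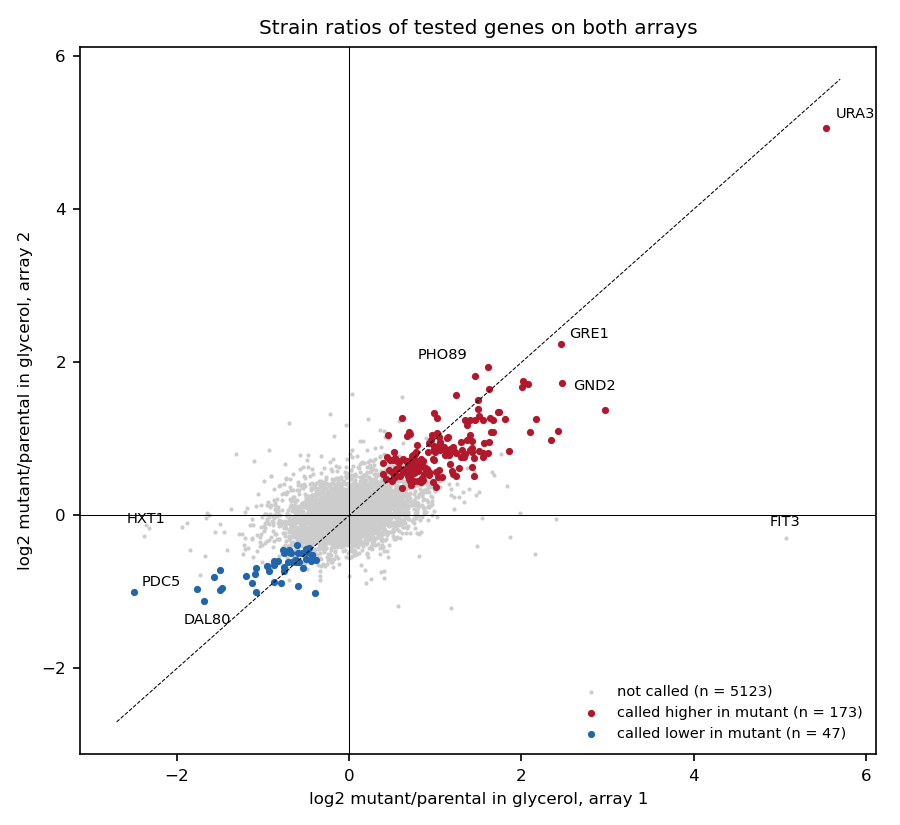
Log2 mutant over parental ratios in glycerol of the 5343 tested genes, array 1 on the horizontal and array 2 on the vertical axis, with the dashed line where both are equal. Red points are the 173 genes called higher, blue points the 47 called lower and grey points the rest; most called genes lie on the array 1 side of the line, and FIT3 and HXT1 differed on array 1 alone.

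Sulfur metabolism held more called genes than any other list. Yeast takes up sulfate, reduces it to sulfide and fixes it into homocysteine, from which methionine, cysteine and the methyl donor S-adenosylmethionine are made. Of 30 tested genes of sulfate assimilation and methionine, 20 were higher in the mutant and 0 were lower, against 3.24% and 0.88% of all genes. Their median ratio was 0.99, with 1.11 on array 1 and 0.83 on array 2, while the median of all tested genes was 0.005. Without array 1, 6 of these genes were called, and without array 2, 16 were.

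Taken in pathway order, not by size of the ratio, uptake and activation of sulfate came first among them. SUL2, a high-affinity sulfate permease, had signals of 7382 (mutant) and 1676 (parental) on array 1 and of 6420 and 1767 on array 2. Its log2 ratios were 2.03 and 1.73, with a mean of 1.88 ± 0.15 (adjusted p = 0.000803). The mutant channel was the brighter by a similar margin on both arrays. MET3, ATP sulfurylase, had ratios of 1.62 and 1.65 on the arrays (1.64 ± 0.10, adjusted p = 0.000249). MET14, the adenylylsulfate kinase that acts next, had 1.497 and 1.51 (1.504 ± 0.14, adjusted p = 0.00152). For both enzymes the arrays differed by less than 0.03.

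The reduction and methylation steps were also higher. MET5, a subunit of sulfite reductase, had ratios of 1.46 and 1.82 (1.64 ± 0.14, adjusted p = 0.00123). MET6, methionine synthase, had 1.73 and 1.36 (1.54 ± 0.19, adjusted p = 0.00504). MET17, counted as a strain marker and not in this list, had signals of 15550 and 5193 on array 1 and of 10960 and 5351 on array 2. Its ratios were 1.56 and 0.95 (1.26 ± 0.21, adjusted p = 0.0153). In glycerol the strains therefore differed also in a gene whose presence goes against the parental label. In glucose the MET17 signals (mutant and parental) were 25950 and 29870 on array 1 and 31380 and 28360 on array 2, and MET17 was not called. Whether the MET17 difference in glycerol bears on the genes of the list was not tested.

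The sulfur genes differed less between the strains in glucose, where 6 of 30 were higher and 0 lower (7.04% of all genes were called there in either direction) and the median was 0.14. The strain difference in glycerol minus that in glucose, tested directly over the 4 strain arrays, called none of the sulfur genes. SUL2, MET5 and MET3 each had adjusted p = 0.0558. The same difference can be taken from the other 4 arrays as the glycerol response of the mutant minus that of the parental strain, and there 11 of the 30 genes were called higher and 0 lower, against 1.87% of all genes in either direction. In those arrays the median response of the list to glycerol was -1.48 in the parental strain and -0.71 in the mutant. MET6 is an example, at -2.71 ± 0.19 in the parental strain and -0.68 ± 0.19 in the mutant, a difference of 2.03 (adjusted p = 0.0243). MET5 stood at -2.52 and -1.13, a difference of 1.39 (adjusted p = 0.0254). Comparisons that hold the same RNA are not independent, so these values stand side by side.

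**Figure D2:**
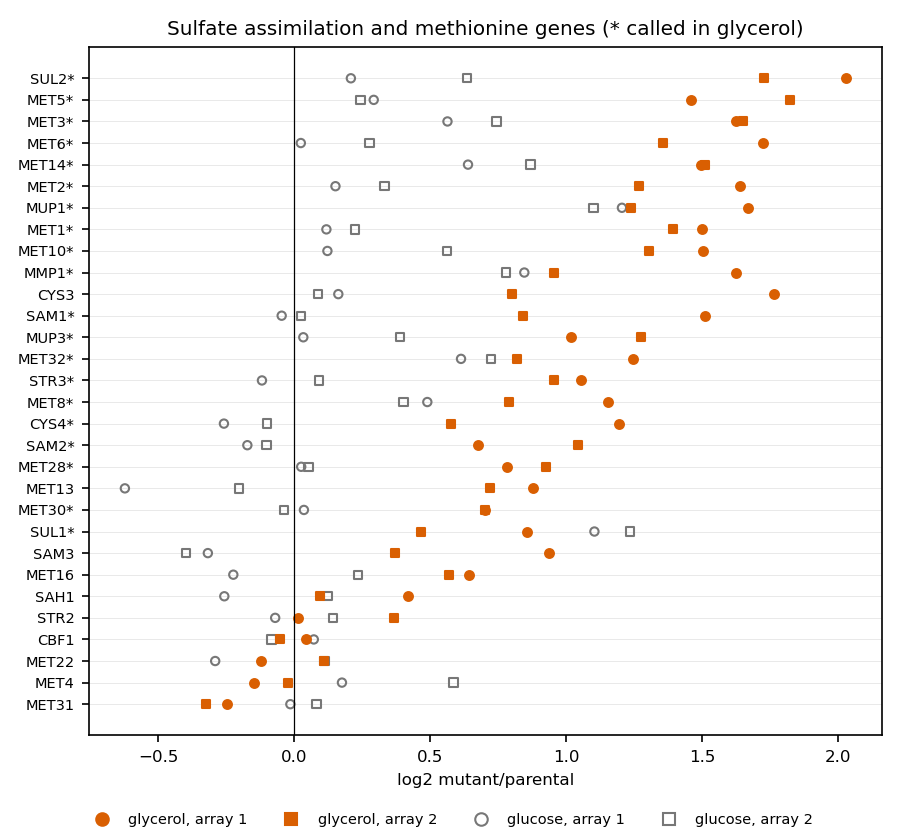
Log2 mutant over parental ratios of the 30 tested genes of sulfate assimilation and methionine, in glycerol (filled) and glucose (open), circles for array 1 and squares for array 2. The 20 genes marked * were called in glycerol; most filled points lie to the right of the open points, and the regulator genes MET4, MET31 and CBF1 lie at or below 0 in glycerol, at -0.08, -0.28 and 0.00.

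One-carbon, purine and pyrimidine synthesis, which exchanges folate-bound carbon with the methionine cycle, had 8 of 30 genes higher and 0 lower. Of all genes 3.24% were higher and 0.88% lower, and the median of this list was 0.48. ADE17, an enzyme of the last steps of purine synthesis, had ratios of 2.10 and 1.08 (1.59 ± 0.27, adjusted p = 0.0176). The 3 genes of glycine cleavage, which feeds carbon from glycine into the folate pool, were all higher. GCV2 had ratios of 1.42 and 0.97 (1.19 ± 0.16, adjusted p = 0.00709), GCV3 had 1.55 and 0.81 (1.18 ± 0.21, adjusted p = 0.0198), and GCV1 had 1.34 and 0.77 (1.05 ± 0.14, adjusted p = 0.00867). Array 1 gave the larger ratio for each of the 4 genes. URA2, the first enzyme of pyrimidine synthesis, was at 0.98 and 0.87 in glycerol (0.92 ± 0.14, adjusted p = 0.0125). In glucose it was lower in the mutant at -0.74 ± 0.14 (adjusted p = 0.0235). The direct test of that difference gave adjusted p = 0.0543, and the responses of the other 4 arrays gave 1.95 with adjusted p = 0.018. Without array 1, 0 of the 8 genes were called, and without array 2, 5 were.

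Among 51 genes of amino acid synthesis, 7 were higher and 0 lower, against 3.24% and 0.88% of all genes, with a median of 0.31. Lysine synthesis was represented by LYS2 at 1.42 and 0.88 (1.15 ± 0.16, adjusted p = 0.00968) and by LYS20, homocitrate synthase, at 1.45 and 0.75 (1.098 ± 0.24, adjusted p = 0.0426). Serine synthesis was represented by SER33 at 0.9957 and 0.83 (0.91 ± 0.11, adjusted p = 0.00504) and SER1 at 1.20 and 0.54 (0.87 ± 0.19, adjusted p = 0.0423). HIS4 of histidine synthesis was at 0.99 and 0.72 (0.85 ± 0.13, adjusted p = 0.0125). None of these 5 was called in glucose. Without array 1, 0 of the 7 genes were called, and without array 2, 5 were. GSH1, which makes the first intermediate of glutathione from cysteine, was at 1.15 and 1.02 (1.09 ± 0.10, adjusted p = 0.0014). It was also higher in glucose, at 0.67 ± 0.10 (adjusted p = 0.0087). Among 27 genes of oxidative stress defence, with a median of -0.06, GSH1 and 2 others were higher and 0 lower, against 3.24% and 0.88% of all genes. The others were the reductase gene OYE3 (0.54 ± 0.12, adjusted p = 0.0436) and the glutathione transferase gene GTT2 (0.52 ± 0.11, adjusted p = 0.0368).

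Cell wall genes formed the next group. The wall of yeast is made of glucan, chitin and mannoproteins, and the PIR mannoproteins are linked directly to glucan. Of 28 tested wall genes 9 were higher and 1 was lower in the mutant, against 3.24% and 0.88% of all genes, with a median of 0.40. CIS3, a PIR protein, had signals of 11990 and 2498 (mutant and parental) on array 1 and of 6639 and 2582 on array 2. Its ratios were 2.17 and 1.26 (1.71 ± 0.23, adjusted p = 0.00864). PIR3 was at 2.34 and 0.98 (1.66 ± 0.34, adjusted p = 0.034) and PIR1 at 1.81 and 1.25 (1.53 ± 0.16, adjusted p = 0.003). All 3 were also higher in glucose, at 1.14, 1.44 and 0.89. YPS3, a yapsin protease of the cell surface, was at 1.55 and 0.76 (1.16 ± 0.23, adjusted p = 0.0317). SCW10, a wall protein that resembles glucanases, was at 1.34 and 0.80 (1.07 ± 0.21, adjusted p = 0.0309). The PIR genes share sequence, and whether their probes separate them was not analysed here. In the fit without array 1, 0 wall genes were called, and without array 2, 6 were.

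Genes of mitosis, cytokinesis and daughter separation had 11 of 28 members higher and 1 lower, against 3.24% and 0.88% of all genes, with a median of 0.38. In glucose 7 were higher and 2 lower, against 3.5% and 3.54% of all genes. CHS2, the chitin synthase of the primary septum, was among the genes furthest apart between the strains. Its signals were 2396 and 367.2 on array 1 and 1460 and 256.8 on array 2, with the mutant channel the brighter. The ratios were 2.08 and 1.72 (1.90 ± 0.12, adjusted p = 0.000267), and in glucose the difference was 1.88 ± 0.12. CLB1, a B-type cyclin, was at 1.46 and 1.24 in glycerol (1.35 ± 0.10, adjusted p = 0.000733) and at 1.44 ± 0.10 in glucose. ALK1, a haspin-like kinase, was at 1.13 and 0.84 (0.99 ± 0.19, adjusted p = 0.0268). The list was split, with 18 of the 28 members above 0 and 10 below 0 on both arrays, and a lowest ratio of -1.26. The 1 member called lower was DSE4, a glucanase that daughter cells secrete to separate, at -1.13 and -0.89 (-1.01 ± 0.13, adjusted p = 0.00638). The DSE4 signals were 17560 against 38740 and 20810 against 38380. Of the replication list, 2 of 25 genes were higher and 0 lower, against 3.24% and 0.88% of all genes. They were RNR1, the large subunit of ribonucleotide reductase, at 0.64 ± 0.13 (adjusted p = 0.0369), and CDC45 at 0.62 ± 0.12 (adjusted p = 0.0309), but scaled on the spike-in probes they lay at -0.13 and -0.28. RNR1 was lower in glucose, at -0.67 ± 0.13 (adjusted p = 0.0272). Without array 1, 2 genes of the mitosis list were called, and without array 2, 9 were.

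**Figure D3:**
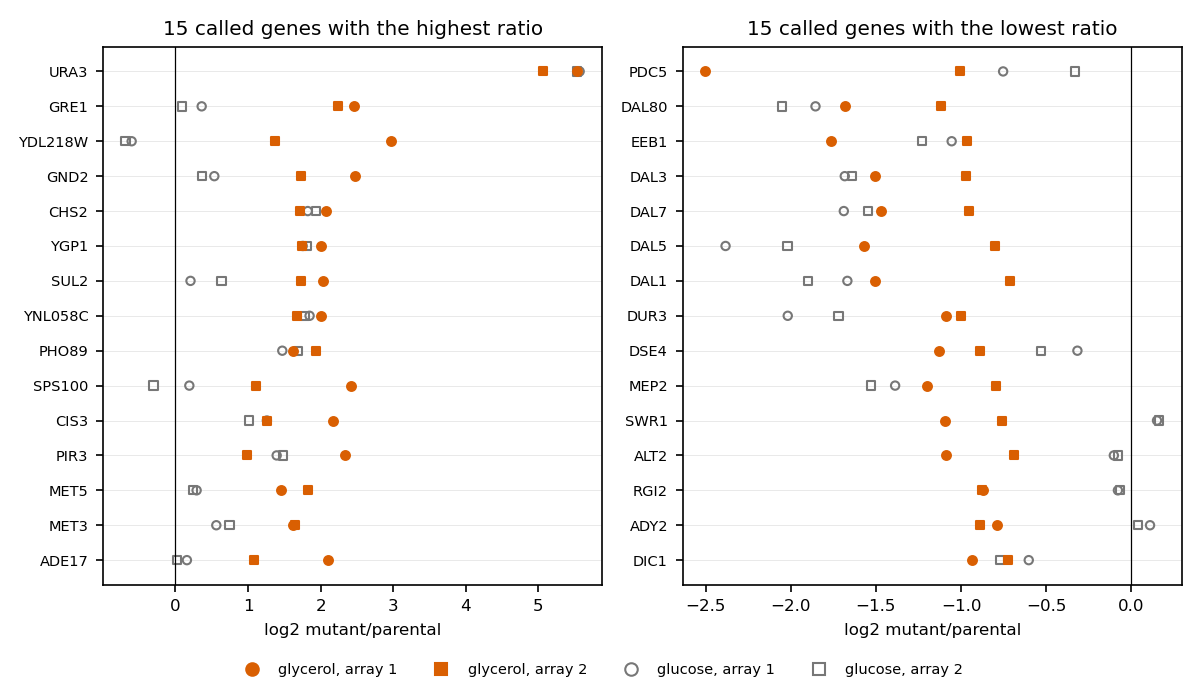
Log2 mutant over parental ratios of the 15 called genes with the highest (left) and the 15 with the lowest (right) ratio in glycerol, filled for glycerol and open for glucose, circles for array 1 and squares for array 2. CHS2, YGP1, YNL058C, PHO89 and the DAL genes were shifted in both media, whereas GRE1, SPS100, ADE17, SWR1, RGI2 and ADY2 had mean ratios between -0.07 and 0.23 in glucose.

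Of 38 genes of the general stress response 7 were higher and 0 lower, against 3.24% and 0.88% of all genes, with a median of 0.12. GRE1, a hydrophilin induced by osmotic and other stress, had signals of 68520 and 12710 on array 1 and of 46290 and 9675 on array 2. Its ratios were 2.46 and 2.23 (2.34 ± 0.13, adjusted p = 0.000197). In glucose the strains differed in GRE1 by 0.23 ± 0.13 (adjusted p = 0.293). GRE1 was the 1 gene of 5343, 0.0187%, whose strain difference itself differed between glycerol and glucose, by 2.12 ± 0.18 (adjusted p = 0.0134), while 992 genes did so at an unadjusted p under 0.05. Any dye effect common to both media drops out of this difference. In the other 4 arrays the glycerol response of GRE1 was 4.81 in the parental strain and 5.85 in the mutant, a difference of 1.04 (adjusted p = 0.0412). Without array 1 of the glycerol comparison, or without either glucose array, 0 genes were called for this difference.

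GND2, a 6-phosphogluconate dehydrogenase of the pentose phosphate pathway, was at 2.47 and 1.73 (2.10 ± 0.18, adjusted p = 0.00123), against 0.45 ± 0.18 in glucose. SPS100, a protein of the spore wall, was at 2.42 and 1.11 (1.76 ± 0.29, adjusted p = 0.0164), against -0.05 in glucose. The direct difference between the media did not pass for either, with adjusted p = 0.0563 and 0.0971. YGP1, a secreted glycoprotein made when nutrients run short, was at 2.01 and 1.75 (1.88 ± 0.22, adjusted p = 0.0046), and HSP26, a small heat shock protein, at 1.24 and 1.57 (1.40 ± 0.26, adjusted p = 0.0254). Both were also higher in glucose, at 1.78 and 1.70. Because 1 label gives an incubation at pH 2.5, acid response genes were listed as well. Against 3.24% and 0.88% of all genes, 4 of 17 were higher and 0 lower. They were GRE1, YGP1, PMA2, a plasma membrane proton pump (1.05 ± 0.18, adjusted p = 0.0177), and MRH1 (0.89 ± 0.15, adjusted p = 0.0153). Without array 1, 2 stress genes and 1 acid response gene were called, and without array 2, 5 and 2 were.

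Phosphate genes had 3 of 21 members higher and 0 lower, against 3.24% and 0.88% of all genes. PHO89, a sodium-phosphate cotransporter, had signals of 1654 and 422.5 on array 1 and of 1330 and 168.7 on array 2. Its ratios were 1.61 and 1.93 (1.77 ± 0.23, adjusted p = 0.00672), and it was at 1.58 ± 0.23 in glucose. The acid phosphatase genes PHO11 and PHO5 were at 0.69 ± 0.12 and 0.51 ± 0.10 (adjusted p = 0.0176 and 0.0306). PHO11 has a close copy whose probe may share signal. Without either array, 0 of the 3 were called.

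The genes that were lower in the mutant were led by nitrogen use. Yeast expresses permeases and enzymes for poor nitrogen sources, such as allantoin and urea, when preferred ones are scarce, under GATA-type factors. Of 36 tested genes 10 were lower and 0 higher, with a median of -0.24, where 0.88% of all genes were lower and 3.24% higher. In glucose 15 were lower and 2 higher, with a median of -0.41, where 3.54% of all genes were lower and 3.5% higher. DAL80, a GATA-type repressor of this set, had signals of 100.6 and 672.7 (mutant and parental) on array 1 and of 229.6 and 676 on array 2. Its ratios were -1.68 and -1.12 (-1.40 ± 0.18, adjusted p = 0.00709), and -1.95 ± 0.18 in glucose. The mutant channel was the dimmer in every case.

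Genes of allantoin breakdown followed. DAL1, allantoinase, was at -1.5047 and -0.71 (-1.11 ± 0.19, adjusted p = 0.0165). DAL3, ureidoglycolate lyase, was at -1.5045 and -0.97 (-1.24 ± 0.23, adjusted p = 0.0268). DAL7, a malate synthase of the same gene cluster, was at -1.47 and -0.95 (-1.21 ± 0.19, adjusted p = 0.0147). All 3 were lower in glucose too, between -1.78 and -1.62. The transporters DAL5 for allantoate, DUR3 for urea and MEP2 for ammonium were at -1.19 ± 0.21, -1.04 ± 0.13 and -0.998 ± 0.18 (adjusted p = 0.0192, 0.00632 and 0.0243). In glucose they were at -2.20, -1.87 and -1.46. For all 7 named genes the estimate was nearer 0 in glycerol than in glucose, and none had an adjusted p under 0.05 in the direct test of that difference, where DUR3 was lowest with 0.0951. Leaving out array 1 left 0 genes of the list called, and without array 2, 5 were.

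Genes of carbon metabolism moved in both directions. Of 25 glycolysis and ethanol genes 4 were higher and 1 was lower, against 3.24% and 0.88% of all genes, with a median of 0.36. TDH3, the main glyceraldehyde phosphate dehydrogenase, was at 0.99 and 1.34 (1.16 ± 0.23, adjusted p = 0.0311) and its paralog TDH1 at 1.02 and 1.08 (1.05 ± 0.14, adjusted p = 0.00723). ENO1, an enolase, was at 0.45 and 1.05 (0.75 ± 0.15, adjusted p = 0.0356) and GPM1, phosphoglycerate mutase, at 0.78 and 0.59 (0.68 ± 0.13, adjusted p = 0.0268). Paralogs of these genes are close in sequence, and whether the probes separate them was not analysed here. PDC5, a minor pyruvate decarboxylase, had the lowest ratio of all called genes. Its signals were 500.5 against 3608 on array 1 and 1213 against 2728 on array 2, with ratios of -2.50 and -1.01 (-1.76 ± 0.32, adjusted p = 0.0229). In glucose it was at -0.54 ± 0.32 (adjusted p = 0.309). In the fit without array 1, 0 of the 5 genes were called, and without array 2, 1 was.

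Genes for using non-fermentable carbon had a median of -0.06, with 0.05 on array 1 and -0.23 on array 2. Of 21 members, 5 lay above 0 and 6 below 0 on both arrays, with ratios from -1.21 to 1.11. Where 0.88% of all genes were lower and 3.24% higher, 4 of the 21 members were called lower and 0 higher. These were JEN1, the lactate and pyruvate permease, at -0.76 and -0.73 (-0.75 ± 0.17, adjusted p = 0.0492), ADY2, an acetate transporter, at -0.79 and -0.89 (-0.84 ± 0.18, adjusted p = 0.0442), RGI2, a respiratory growth gene, at -0.87 and -0.88 (-0.87 ± 0.18, adjusted p = 0.0332), and DAL7. The first 3 had parental signals from 49400 to 86210 in glycerol. In glucose they were at 0.19, 0.07 and -0.07 (adjusted p = 0.499, 0.83 and 0.83). Between the other 4 arrays, RGI2 rose by 8.78 in the parental strain and 6.88 in the mutant, a difference of -1.90 (adjusted p = 0.0243), and for ADY2 the difference was -1.59 (adjusted p = 0.0362). Leaving out array 1 left 0 of the 4 genes called. Without array 2, 3 genes of the list were called higher and 1 lower.

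Respiratory genes lay slightly lower without passing the test gene by gene. Of 27 nuclear genes of the respiratory chain 0 were called, with a median of -0.28, which was -0.54 on array 1 and -0.08 on array 2. Of 16 ATP synthase genes 0 were called, with a median of -0.32, and 14 were below 0 on both arrays. ATP5 was at -0.99 and -0.21 (adjusted p = 0.173) and COX5B at -1.42 and -0.45 (adjusted p = 0.13). At an unadjusted p under 0.05 there were 8 respiratory chain and 4 ATP synthase genes, against 1081 of all 5343 genes. Mitochondrial ribosomal proteins had 3 of 64 genes lower and 0 higher, against 0.88% and 3.24% of all genes. They were MRP20 at -0.66 ± 0.11 (adjusted p = 0.0149), RSM22 at -0.61 ± 0.14 (adjusted p = 0.0492) and MRPL4 at -0.49 ± 0.09 (adjusted p = 0.0297). Of the 64 genes, 49 were below 0 on both arrays, against 1612 of all 5343. Of 35 proteasome genes 1 was lower and 0 higher, against 0.88% and 3.24% of all genes, with a list median of -0.29. The called gene was RPN9 of the lid, at -0.58 ± 0.12 (adjusted p = 0.0369).

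Cytosolic ribosomal proteins showed the opposite sign. Of 138 genes 5 were higher and 0 lower, a share near the background, but 111 were above 0 on both arrays, against 1731 of all 5343, and the median was 0.32. The called genes were RPS22B (0.88 ± 0.19, adjusted p = 0.0458), RPL2A (0.65 ± 0.14, adjusted p = 0.0383), RPS8A (0.64 ± 0.14, adjusted p = 0.0452), RPL3 (0.60 ± 0.13, adjusted p = 0.0392) and RPS14B (0.60 ± 0.13, adjusted p = 0.0454). Most ribosomal protein genes have a near-identical copy, so signal may be split between copies. Scaled on the spike-in probes, RPL2A, RPS8A, RPL3 and RPS14B lay below 0, between -0.15 and -0.17. The directions in both ribosomal lists are therefore relative to the average gene. In the fit without array 1, 0 genes of either ribosomal list were called, and without array 2, 1 cytosolic gene was.

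**Figure D4:**
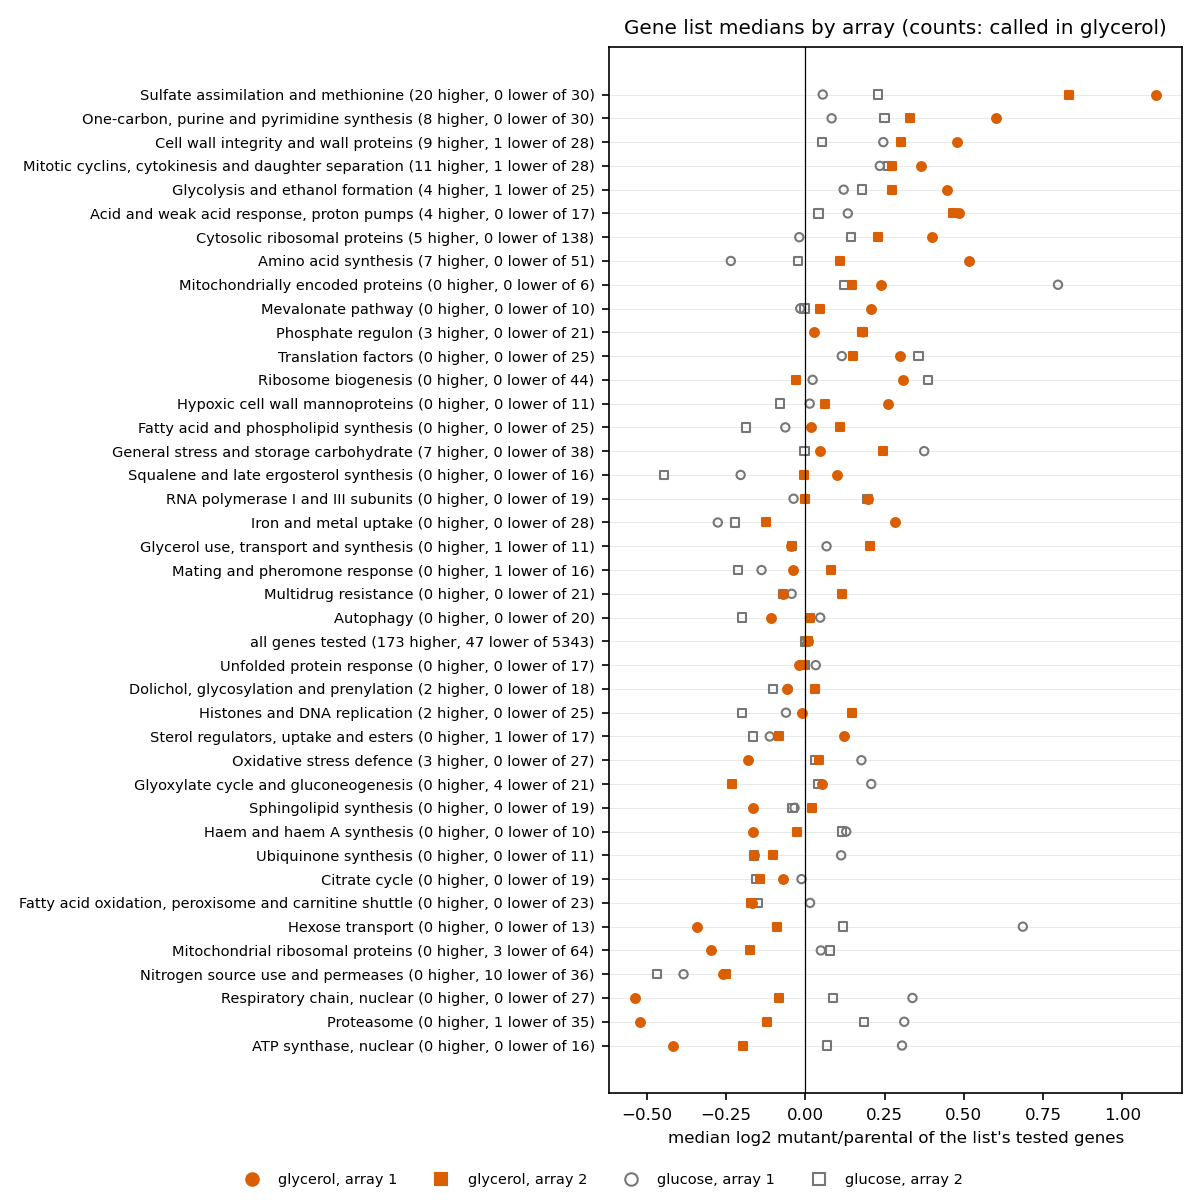
Median log2 mutant over parental ratio of the tested genes of each list, in glycerol (filled) and glucose (open), circles for array 1 and squares for array 2, with the number called in glycerol beside each name and the strain markers left out. Among the lists drawn, sulfate assimilation lies furthest to the right at 1.11 and 0.83, and the lists of ATP synthase, proteasome and respiratory chain lie below 0 in glycerol and above 0 in glucose.

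The sterol pathway itself, in which the mutated enzyme acts, showed no called gene in glycerol. Of 10 tested genes of the mevalonate pathway 0 were called, and of 16 genes from squalene to ergosterol 0 were called, where 4.12% of all genes were. At an unadjusted p under 0.05 in limma there were 1 and 3, against 1081 of all 5343 genes. The mevalonate list had a median of 0.20 and a range from -0.22 to 0.23. HMG1, the main hydroxymethylglutaryl-CoA reductase, was at 0.46 and 0.005 (0.23 ± 0.13, adjusted p = 0.364), and its paralog HMG2 at -0.20 and -0.25 (-0.22 ± 0.10, adjusted p = 0.27). ERG13, which makes the substrate of both, was at 0.30 and 0.16 (adjusted p = 0.35). The steps after the kinase were as near to 0, with ERG8, phosphomevalonate kinase, at -0.04 and 0.02, MVD1 at 0.15 and 0.16, IDI1 at 0.37 and 0.06, and ERG20, farnesyl diphosphate synthase, at 0.41 and 0.03. For HMG1, IDI1 and ERG20 the value came mostly from array 1.

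Beyond farnesyl diphosphate, ERG9, squalene synthase, which commits the pathway to sterols, had the lowest ratio, -0.50 and -0.45 (-0.48 ± 0.13, adjusted p = 0.0823). It was at -0.47 ± 0.13 in glucose (adjusted p = 0.067). ERG5, which acts near the end of the pathway, had the highest, 0.38 and 0.36 (0.37 ± 0.12, adjusted p = 0.137). ERG25, ERG11 and ERG3 were at 0.63, 0.56 and 0.55 on array 1 and at 0.04, -0.01 and -0.02 on array 2. In glucose the late list had 0 genes higher and 2 lower, ERG6 at -0.44 ± 0.10 (adjusted p = 0.0404) and ERG27 at -0.51 ± 0.12 (adjusted p = 0.0441), and a median of -0.33 against 0.10 in glycerol. HMG1 was lower in glucose as well, at -0.64 ± 0.13 (adjusted p = 0.0272). The direct test of glycerol minus glucose called none of the sterol genes. A p that misses the threshold does not show that a gene was alike in both strains.

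**Figure D5:**
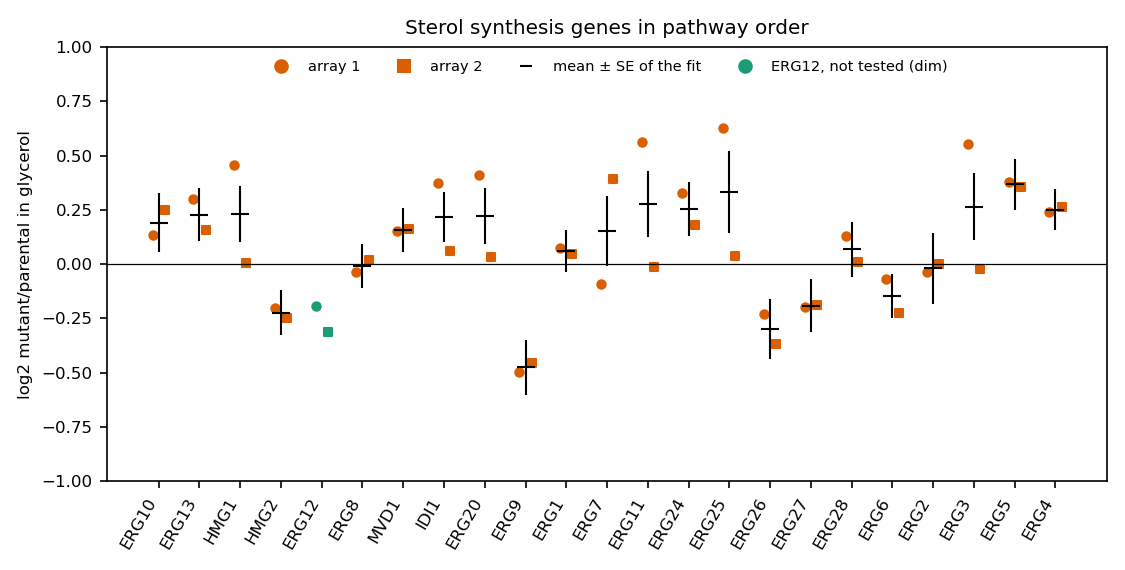
Log2 mutant over parental ratios in glycerol of the sterol synthesis genes in pathway order, circles for array 1, squares for array 2, bars for the mean and SE of the fit; ERG12, not tested, is in green without a bar. All values lie between -0.50 and 0.63, and none was called.

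Lists of genes that handle the other products of the pathway differed in their calls. Of all tested genes 4.12% were called, against 5.88% of sterol regulators, uptake and ester genes and 11.1% of dolichol, glycosylation and prenylation genes. At 4.12%, 0 calls in a list of 10 or 11 genes do not set it apart. Of 17 sterol regulators, uptake and ester genes 1 was called, PDR11, an ABC transporter of sterol uptake, lower at -0.87 and -0.60 (-0.73 ± 0.13, adjusted p = 0.0209) and at -0.99 ± 0.13 in glucose. Of 18 genes of dolichol, glycosylation and prenylation 2 were higher. SRT1, a cis-prenyltransferase that makes long dolichols, was not well above background in the parental channel on either array, so its ratio of 0.68 and 0.54 (0.61 ± 0.10, adjusted p = 0.0149) is against a level at background and gives at least 1.53-fold, which is the measured ratio because the parental signals lay above the lowest detected signal. Scaled on the spike-in probes it lay at -0.38. ALG14, which acts on the dolichol-linked sugar, was at 0.49 and 0.56 (0.53 ± 0.10, adjusted p = 0.0262), with the parental channel well above background on 1 of the 2 arrays and a value of -0.46 when scaled on the spike-in probes. Ubiquinone synthesis had 0 of 11 called, with a median of -0.13, and haem synthesis 0 of 10, with a median of -0.10. The hypoxic mannoproteins, wall proteins made when oxygen is short, had 0 of 11 called. The lists of the unfolded protein response, multidrug resistance, sphingolipids, fatty acid and phospholipid synthesis, fatty acid oxidation, autophagy, the citrate cycle, hexose transport, ribosome biogenesis, RNA polymerase I and III, translation factors and mitochondrially encoded proteins likewise had 0 called. Across the 20 lists with 0 called, 1 to 8 genes each had an unadjusted p under 0.05 in limma, where 1081 of all 5343 did. Glycerol use had 1 of 11 called (9.09%) and the mating list 1 of 16 (6.25%), against 4.12% of all genes. The called genes were the transcription factor gene RSF2 at -0.54 ± 0.10 (adjusted p = 0.0243) and PRM2 at -0.57 ± 0.11 (adjusted p = 0.0252).

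The strain difference in glycerol overlapped in part with that in glucose, a comparison that shares no RNA with it. Both sets of calls use the same estimate of each gene's spread over all 8 arrays, so the calls are not independent. Of the genes higher in the mutant, 68 were so in both media, which is 39.3% of the 173 in glycerol and 36.4% of the 187 in glucose. Of those lower, 18 were shared, 38.3% of the 47 in glycerol and 9.52% of the 189 in glucose. Of all tested genes, 3.24% were higher and 0.88% lower in glycerol, and 3.5% were higher and 3.54% lower in glucose. Of the 173 genes, 3 (1.73%) were lower in glucose, where 3.54% of all genes were, and of the 47 genes, 2 (4.26%) were higher in glucose, where 3.5% of all genes were. Across the tested genes, which are not independent and carry the same dye orientation in both comparisons, the strain differences correlated at r = 0.343, and at 0.308 without URA3.

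Among the remaining genes with the largest ratios, YDL218W and YNL058C have no established role. YDL218W was at 2.96 and 1.37 (2.17 ± 0.36, adjusted p = 0.0153) and at -0.64 in glucose, and YNL058C at 2.003 and 1.68 (1.84 ± 0.11, adjusted p = 0.000235) and at 1.82 ± 0.11 in glucose. On the lower side, SWR1, the catalytic subunit of the complex that places the histone variant H2A.Z, was at -1.09 and -0.76 (-0.93 ± 0.15, adjusted p = 0.0149), and ALT2, an alanine aminotransferase paralog, at -1.09 and -0.69 (-0.89 ± 0.13, adjusted p = 0.0103). Both lay near 0 in glucose, at 0.16 and -0.09. EEB1, which makes ethyl esters of fatty acids, was at -1.77 and -0.97 (-1.37 ± 0.23, adjusted p = 0.0172) and at -1.14 in glucose. DIC1, the mitochondrial dicarboxylate carrier, was at -0.93 and -0.73 (-0.83 ± 0.16, adjusted p = 0.0309) and at -0.69 in glucose.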

How the data were processed

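Labelling started from 100 ng of RNA and included spike-in RNA, according to the labels' protocols. Each deposited scanner file gave median spot and local background intensity, processed intensity, a log10 ratio of Cy5 over Cy3 and quality flags, and its header names Agilent Feature Extraction 10.10.1.1. The authors also deposited a value per gene that combines both arrays, with limma named in the submitters' processing notes. These values were read as log2 ratios although the authors' log base and centring are not given in the sources used here, because their slope on the ratios below was 1 (r = 0.982, median -0.022).

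Here R 4.3.3 and limma 3.58.1 were used for normexp correction with an offset of 50, loess within arrays and averaging of both spots of a gene. The offset moves ratios of dim genes towards 0. The plan named mean signals, but the columns used here are medians. One coefficient per comparison was fitted over all 8 arrays (4 residual degrees of freedom) with eBayes, and genes were called at an adjusted p under 0.05. Names came from the array and a yeast reference, to which 5756 genes matched and 500 did not. The fit was tested on simulated data.

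The 41 gene lists, the tests and the rule for named genes were chosen with earlier results of these data known. The rule took the 15 highest and 15 lowest called genes, up to 5 called or 3 uncalled genes of each list, all sterol genes and the strain markers. SEO1, RAD59, MNN4 and MUP3 were named because both fits without 1 array called them. Promoter motifs were not analysed here. Alternatives changed the background correction, scaling, filter, dye channel, arrays and threshold.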

Additional observations from a re-analysis of the deposited data

Results flagged for a closer look

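GRE1, a stress-induced hydrophilin, stood out because its strain difference was larger in glycerol than in glucose by 2.12 (log2, adjusted p = 0.0134 in limma).

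In 9 of the 41 gene lists the median strain difference had one sign on both glycerol arrays and the opposite sign on both glucose arrays. The difference of the medians was not tested.
Respiratory chain genes had a median of -0.275 in glycerol (-0.54 and -0.08 on the arrays) and of 0.19 in glucose. ATP synthase genes had -0.317 and 0.15, mitochondrial ribosomal proteins -0.228 and 0.06, and haem synthesis -0.100 and 0.09. Proteasome genes had -0.286 in glycerol and 0.25 in glucose, and hexose transport genes -0.189 and 0.40. Amino acid synthesis was the reverse, with 0.306 in glycerol and -0.09 in glucose. Fatty acid and phospholipid synthesis had 0.131 and -0.14, and the mevalonate pathway 0.203 and -0.02. Some array medians lay close to 0, such as those of the mevalonate pathway in glucose, at -0.016 and -0.003.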

How the results depend on the processing

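The count of 220 genes moved by over 1.5 times under 6 settings and when 1 array was left out. It was 120 with median centring in place of loess, 88 from the 2 arrays alone, 732 in the loop model over all 8 arrays, 448 with Cy5 channels only (166 of them among the 220) and 72 with a 2-fold change required as well. Leaving out 1 array gave 18 to 108. Scaling on the spike-in probes gave a median over all genes of -0.818 and 3951 calls, of which 0.582% were higher, against 78.6%. Under it ERG1, ERG28 and NCP1 turned to -0.70, -0.69 and -0.66, the markers AGA2 and ATP6 to -0.84 and -0.74, and ALG14 turned to -0.46, CDC45 to -0.28, ENO1 to -0.031, GPM1 to -0.14, GTT2 to -0.24, OYE3 to -0.32, PHO11 to -0.078, PHO5 to -0.34, RNR1 to -0.13, RPL2A to -0.16, RPL3 to -0.16, RPS14B to -0.17, RPS8A to -0.15 and SRT1 to -0.38. Another 7 settings gave 193 to 259. The labels do not pair the arrays by number; with the slide row as a replicate block there were 198 calls, 184 of them among the 220.

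The count of 1 gene for the difference between the media was 30 with offset 0, 20 with background subtracted, 7 with Agilent's processed signals, 0 with median centring, 609 with spike-in centring, 0 from the 4 strain arrays alone, 2 with the replicate block, 100 from the other 4 arrays and 773 for the mean of both estimates, chosen after seeing the data. Leaving out 1 array gave 0 to 3. Array number and signal over background limit what could be called, and the causes of these shifts were not tested.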

Other observations

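Iron genes differed between the arrays. On array 1, 8 of 28 iron and metal uptake genes had a log2 ratio above 1, and on array 2, 0 did. Below -1 there were 0 on array 1 and 2 on array 2, SIT1, a siderophore transporter (1.19 and -1.21), and FIT2, a wall mannoprotein (0.57 and -1.19). FIT3, a mannoprotein that holds iron carriers in the wall, had signals of 97450 (mutant) and 2671 (parental) on array 1 and of 1510 and 1945 on array 2, or ratios of 5.07 and -0.30. FET3, the multicopper oxidase of iron uptake, was at 2.15 and -0.51, and the siderophore transporter genes ARN2 and ARN1 were at 2.40 and -0.05 and at 1.99 and 0.03. TIS11, an mRNA-binding protein of iron starvation, was at 1.87 and -0.28. The mutant glycerol over glucose comparison also had its arrays apart, with FIT3 at 5.6996 and 0.09, FET3 at 2.59 and -0.49 and ARN2 at 2.03 and -0.47. The parental comparison had FIT3 at 0.11 and -0.27 and FET3 at -1.14 and -1.14. None of these genes was called in glycerol.

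Hexose transporter genes were apart too. HXT1 was at -2.39 on array 1 and -0.27 on array 2, HXT6 at -2.36 and -0.13 and HXT7 at -2.32 and -0.17, where HXT6 and HXT7 are near-identical copies. In the mutant glycerol over glucose comparison HXT7 was at -2.76 and -0.13. SPI1, a wall protein of stationary phase, was at -1.94 and -0.15 in the strain comparison. In all, 103 tested genes differed by over 1 between the glycerol strain arrays, of which 6 were called. Whether the slide rows hold RNA of the same cultures across comparisons is not given in the labels.

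Families outside the lists, chosen after their values were seen, were also called. All 8 copies of the YRF1 helicase gene of subtelomeric Y' elements were higher in the mutant in glycerol (0.62 to 0.73) and in glucose (0.73 to 0.88), and these copies are near-identical. The metallothionein copies CUP1-1 and CUP1-2 were at 1.37 and 1.38 in glycerol and were not called in glucose. IME1, the master regulator of meiosis, was at 1.61 and 0.82 (1.22 ± 0.19, adjusted p = 0.0125) in glycerol and at -0.10 in glucose. Next to ERG12 on chromosome XIII, HFA1 was at 0.50 (adjusted p = 0.0661) and YMR209C at -0.35 (adjusted p = 0.133).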
